A study of Caenorhabditis elegans with 14 samples.

Results

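Cyclins and mitotic kinases are represented here by 10 genes of Caenorhabditis elegans. They are the B-type cyclin genes cyb-1, cyb-2.1, cyb-2.2 and cyb-3, the cyclin E gene cye-1, the cyclin-dependent kinase genes cdk-1 and cdk-2, the polo-like kinase gene plk-1 and the Aurora kinase genes air-1 and air-2. The members were taken by gene symbol from an expression table of 20411 genes, in which each of the 10 had 1 row. All 10 passed the filter on low values, under which a gene had to average 1 FPKM or more over 13 libraries. FPKM is a level in sequenced fragments scaled by transcript length and library size, so levels of different genes can be set side by side.

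The study separated sex from X chromosome number by profiling poly(A) RNA of whole worms from 2 strains. TY2205 animals are XO hermaphrodites, and CB5362 animals are XX males. As background, TY2205 carries mutations in her-1, sdc-3 and xol-1 and CB5362 in tra-2 and xol-1, so a xol-1 mutation is shared by all groups. There were 3 libraries of XO hermaphrodite young adults, 4 of XX male young adults, 3 of XO hermaphrodite L3 larvae and 3 of XX male L3 larvae. Young adults of both strains had grown for 44 h at 25 °C, and L3 larvae for 24 h at a temperature that the labels do not give. Each sex comes from 1 strain, so sex, X number and the other differences between the strains cannot be told apart, and temperature cannot be told apart from stage. One further TY2205 young adult library, marked by its submitters as reverted, was left out.

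Cyclins are the regulatory subunits that switch on cyclin-dependent kinases. Cyclin E with CDK-2 drives entry into S phase, and B-type cyclins with CDK-1 drive entry into M phase, until the anaphase-promoting complex marks them for destruction. PLK-1 and the Aurora kinases act beside CDK-1, PLK-1 and AIR-1 on centrosomes and the spindle and AIR-2 on chromosomes and at cytokinesis. In an adult worm the somatic cells no longer divide. Mitosis goes on in the germline, germ cells pass through meiosis, and oocytes store cell cycle transcripts for the embryo.

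The strain labels were compared with the 4 genes mutated in these strains. xol-1 was listed at 0 in all 13 libraries, and her-1 was at 9.83 to 42.7 FPKM in XO hermaphrodites against 0.401 to 1.69 FPKM in XX males. sdc-3 was at 0.240 to 0.416 FPKM in XO hermaphrodites, against 1.32 to 5.31 FPKM in XX males. tra-2 was at 33.6 to 38.5 FPKM in XO hermaphrodite young adults, against 16.8 to 19.5 FPKM in XX male young adults, and its ranges overlapped at L3. Absolute depth is unknown. Relative depth was estimated from the most frequent per-gene ratio of low values between each library and replicate 1 of the XX male young adults. It was 0.619 to 1.46 in young adults and 0.224 to 0.919 at L3, with that replicate taken as 1. FPKM sums did not overlap between the strains, at 916127 to 940071 in XO hermaphrodite and 1159056 to 1298816 in XX male young adults, and at 1317414 to 1574087 in XO hermaphrodite and 1216741 to 1289639 in XX male L3 larvae. Among the L3 libraries, XO hermaphrodite replicate 1 had Spearman correlations over genes of 0.907 and 0.917 with its own group, and of 0.943 and 0.927 with XX male replicates 2 and 3. XX male L3 replicate 1 had 0.8855 and 0.914 with its own group and 0.8365 to 0.863 with XO hermaphrodite L3 libraries. With XX male young adults it had 0.673 to 0.7235, where XX male L3 replicates 2 and 3 had 0.497 to 0.556. This library also held 392 FPKM of 12 summed sperm markers, against 3.78 and 26.2 FPKM in the other XX male L3 libraries. Among XX male young adults, replicate 4 had the highest value of the group for all 10 members. Replicate 2 of the XO hermaphrodite young adults likewise had the highest value of its group for all 10. The share of all genes with such a pattern was not computed. The labels do not say that replicates came from separate cultures, so p-values measure the spread between these libraries, which may be technical.

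In young adults, 9 of the 10 genes were higher in XO hermaphrodites, and the remaining gene, cyb-1, was not called. The largest difference from XX males was that of cyb-3, which averaged 639.7 ± 101 FPKM in XO hermaphrodites and 30.97 ± 2.93 FPKM in XX males (SD, n = 3 and 4). The smaller B-type cyclins cyb-2.1 and cyb-2.2 followed, then cyclin E, then cdk-1, cdk-2 and plk-1 at nearly the same difference, and last the Aurora kinases. A call is an adjusted p under 0.05 in limma, fitted to log2(FPKM + 1) of 14628 genes. Of all genes tested, 33.9% were called higher and 33.3% lower in XO hermaphrodite young adults. The libraries of the 2 groups did not overlap for the 9 called members, with XO hermaphrodites above, and 37.5% of all genes had such a split. The median log2 difference was 1.96 over the 10 members and -0.11 over all genes tested. In whole worms, fewer cells of a type and less RNA per cell cannot be told apart.

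Germline and oocyte markers moved with these genes. The 12 germline markers summed to between 1254 and 1379 FPKM in XO hermaphrodite young adults, against 358 to 422 FPKM in XX male young adults. The 12 oocyte markers summed to between 5062 and 6017 FPKM in XO hermaphrodites, against 120.0 to 149.7 FPKM in XX males, and none of these 24 markers was at 0 throughout a group. The 12 sperm markers ran the other way, at 85.0 to 462 FPKM in XO hermaphrodites and 5421 to 7310 FPKM in XX males. Of 12 early zygotic genes, 6 had a mean of at least 1 FPKM in XO hermaphrodites and 3 in XX males, and the sum was 112 to 149 FPKM in XO hermaphrodites and 39.6 to 52.6 FPKM in XX males. Most of the XO hermaphrodite sum was pal-1, at 98.5 to 123.9 FPKM, against 7.26 to 10.2 FPKM in XX males. elt-1 (5.87 to 8.47 FPKM) and hlh-1 (3.39 to 4.74 FPKM) were lower in XO hermaphrodites. In XX males they were at 25.8 to 34.3 FPKM (elt-1) and 5.13 to 6.81 FPKM (hlh-1). pes-10 of this list was at 0 in all XX male young adult libraries. Summed muscle markers stood at 4503 to 5726 FPKM in XO hermaphrodites, against 12359 to 16941 FPKM in XX males. Intestine markers stood at 2952 to 3697 FPKM in XO hermaphrodites, against 8319 to 12225 FPKM in XX males. Most of the intestine sum was asp-1, at 1882 to 2455 FPKM in XO hermaphrodites and 6028 to 10561 FPKM in XX males. Of the same list, elt-2, vha-6, ifb-2 and act-5 were also lower in XO hermaphrodites with separate ranges. The ranges of cpr-6, spl-1, ges-1 and pho-1 overlapped. Hypodermis sums overlapped, at 179 to 724 FPKM in XO hermaphrodites and 375 to 1392 FPKM in XX males. The part of these cells in the differences was not tested.

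**Figure D1:**
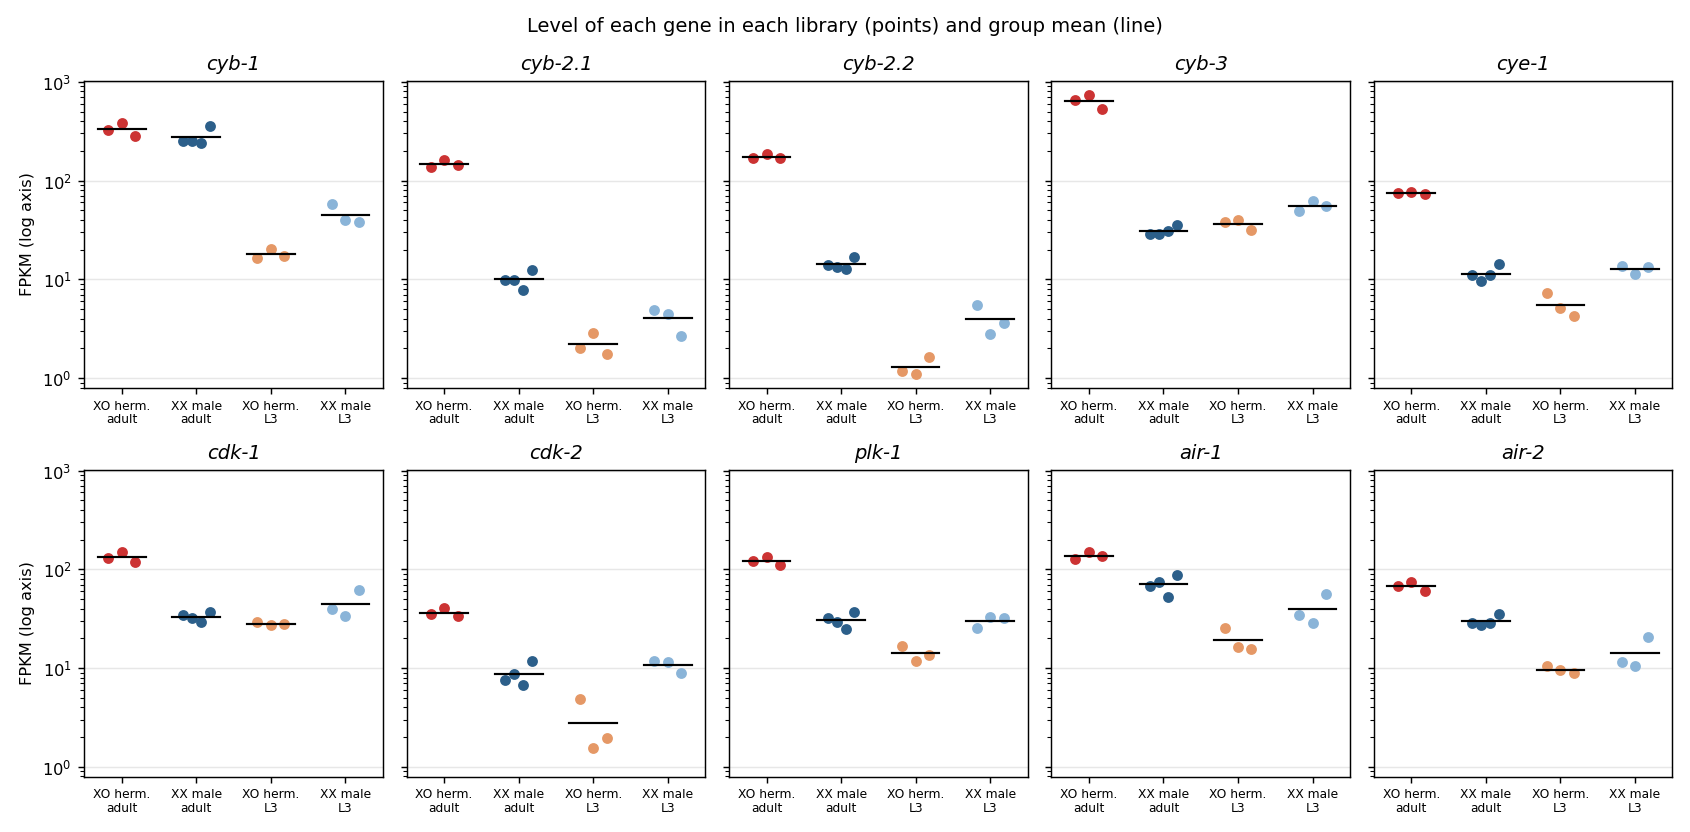
FPKM (log axis) of each of the 10 genes in each library (points), with the group mean (line), for XO hermaphrodite and XX male young adults and XO hermaphrodite and XX male L3 larvae. The XO hermaphrodite young adult points stand above all others for 9 genes, while for cyb-1 they overlap those of XX male young adults.

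Among the B-type cyclins, cyb-3 encodes the B3-type cyclin, which is needed for chromosome segregation in the early embryo. It stood at 649, 736 and 535 FPKM in XO hermaphrodite young adults, against 28.6, 29.1, 31.1 and 35.1 FPKM in XX male young adults. Every XO hermaphrodite library lay far above every XX male library. The log2 difference was 4.32 ± 0.16 (SE; limma, adjusted p = 2.5e-10). In level, cyb-3 had the highest mean of the 10 members in XO hermaphrodite young adults, whereas in XX male young adults it stood below cyb-1, air-1 and, with overlapping ranges, cdk-1.

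cyb-2.1, on chromosome IV, and cyb-2.2, on chromosome I, are close paralogs. cyb-2.1 was at 138, 160.3 and 144 FPKM in XO hermaphrodite young adults, against 9.88, 9.88, 7.75 and 12.3 FPKM in XX male young adults. cyb-2.2 was at 168, 185 and 169 FPKM in XO hermaphrodites, against 13.8, 13.4, 12.7 and 16.7 FPKM in XX males. For both paralogs the groups were well apart. The log2 differences were 3.77 ± 0.22 (SE; limma, adjusted p = 1.6e-08) for cyb-2.1 and 3.53 ± 0.20 (SE; limma, adjusted p = 1.4e-08) for cyb-2.2. The split of reads between them is uncertain, and their summed FPKM gave a log2 difference of 3.69 ± 0.18 (SE; limma, adjusted p = 3.9e-09).

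cyb-1 encodes the B1-type cyclin, a main partner of CDK-1. It was at 327, 379 and 284 FPKM in XO hermaphrodite young adults, against 254, 254, 242 and 358 FPKM in XX male young adults. XX male replicate 4 lay within the XO hermaphrodite range and the other XX male libraries below it. The log2 difference was 0.26 ± 0.19 (SE; limma, adjusted p = 0.247), with a 95% confidence interval of -0.16 to 0.68. This value depends on the scaling of the libraries, at -0.08 with upper quartile scaling and 1.01 with quantile normalization, where it was called (limma, adjusted p = 8.4e-04).

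The make-up of the B-type cyclin transcripts differed between the strains. cyb-1 made up 25.5 ± 0.434% of the summed B-type cyclin FPKM in XO hermaphrodite young adults and 83.3 ± 1.05% in XX male young adults (SD, n = 3 and 4). cyb-3 made up 49.4 ± 1.89% in XO hermaphrodites and 9.44 ± 0.931% in XX males. No library of one group reached the range of the other for either share. The ratio of cyb-1 to cyb-3 was 0.505 to 0.531 in XO hermaphrodites, against 7.79 to 10.2 in XX males. An exact permutation test over 3 against 4 libraries gave p = 0.0571 (two-sided) for each of these quantities, the smallest that this design allows. Shares and ratios within a library do not depend on a scaling by 1 factor per library, but quantile normalization is not of that kind.

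**Figure D2:**
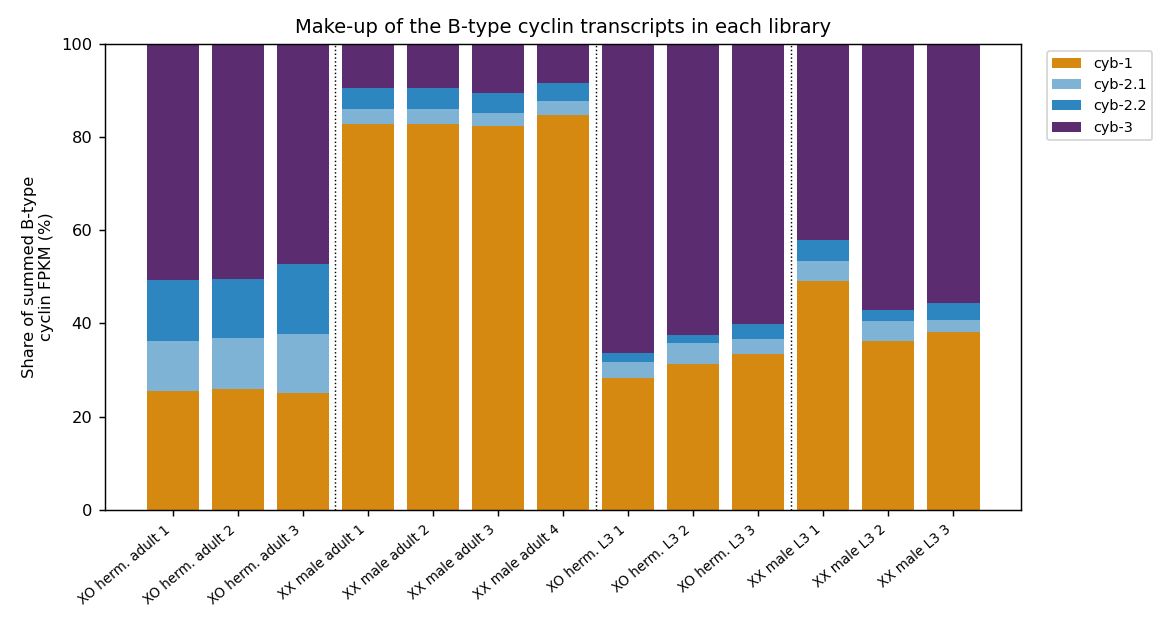
Share of the summed FPKM of cyb-1, cyb-2.1, cyb-2.2 and cyb-3 (%) in each of the 13 libraries, as stacked bars, with dotted lines between the groups. cyb-1 takes 82.5 to 84.8% in XX male young adults and at most 49.1% in any other library.

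Set against their kinase, the cyclins also differed. cyb-3 stood at 4.55 to 5.03 times the FPKM of cdk-1 in XO hermaphrodite young adults and at 0.830 to 1.07 times in XX male young adults. cyb-1 stood at 2.42 to 2.54 times cdk-1 in XO hermaphrodites and at 7.35 to 9.73 times in XX males. The summed B-type cyclin level was 1132 to 1460.0 FPKM in XO hermaphrodites and 294 to 422 FPKM in XX males. All 3 quantities had separate ranges in the 2 groups (exact permutation test, two-sided p = 0.0571 each, the smallest possible).

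The S phase pair was also higher in XO hermaphrodite young adults. cye-1, which encodes cyclin E, was at 74.7, 76.8 and 73.0 FPKM in XO hermaphrodites, against 11, 9.65, 10.96 and 14.2 FPKM in XX males. cdk-2, which encodes its kinase, was at 34.8, 40.2 and 33.6 FPKM in XO hermaphrodites, against 7.63, 8.74, 6.72 and 11.8 FPKM in XX males. Both genes had every XO hermaphrodite library above every XX male library. The log2 differences were 2.62 ± 0.19 (SE; limma, adjusted p = 1.7e-07) for cye-1 and 1.96 ± 0.28 (SE; limma, adjusted p = 4.7e-05) for cdk-2. In the WBcel235 annotation the exons of cdk-2 overlap a noncoding RNA on the same strand, K03E5.9, and an antisense RNA, anr-45. The libraries were strand-specific per the labels, but whether strand was used in quantification is not given, so the level of cdk-2 may include reads of these RNAs.

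cdk-1 encodes the kinase that drives mitosis and meiotic divisions. It was at 129, 149 and 117 FPKM in XO hermaphrodite young adults, against 34.5, 31.9, 28.9 and 36.7 FPKM in XX male young adults. The lowest XO hermaphrodite library was more than 3-fold above the highest XX male library. The log2 difference was 1.96 ± 0.19 (SE; limma, adjusted p = 2.5e-06).

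plk-1 encodes a polo-like kinase of centrosome maturation, nuclear envelope breakdown and cell polarity. It was at 121, 133 and 111 FPKM in XO hermaphrodite young adults, against 32.1, 29.4, 24.8 and 37.3 FPKM in XX male young adults, with no overlap. The log2 difference was 1.95 ± 0.18 (SE; limma, adjusted p = 1.5e-06), close to those of cdk-1 and cdk-2.

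The Aurora kinases differed least among the called members. air-1, the Aurora A gene needed for centrosome maturation, was at 127, 150.5 and 135 FPKM in XO hermaphrodite young adults, against 67.7, 73.7, 52.4 and 87.1 FPKM in XX male young adults. air-2, the Aurora B gene of the chromosomal passenger complex, was at 67.7, 74.6 and 59.9 FPKM in XO hermaphrodites, against 28.5, 27.1, 28.9 and 35.6 FPKM in XX males. For both genes all XO hermaphrodite libraries were the higher ones. The log2 differences were 0.98 ± 0.25 (SE; limma, adjusted p = 0.00403) for air-1 and 1.14 ± 0.21 (SE; limma, adjusted p = 3.9e-04) for air-2. The 9 calls of the young adult comparison remained when any 1 library was left out and under every other setting tried.

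At L3, before oocytes form, the order of the strains was the opposite. All 10 log2 differences were below 0, and 5 genes were called lower in XO hermaphrodites: cdk-2, cyb-1, cye-1, cyb-2.2 and plk-1. Of all genes tested, 4.31% were called lower and 1.26% higher in XO hermaphrodite L3 larvae. This balance moves with the scaling of the libraries, as 22.7% of the L3 calls were higher with the values as deposited, against 55.6% with quantile normalization, while the members' differences were below 0 under each scaling tried. The libraries of 8 members did not overlap, with XO hermaphrodites below, as did 13.2% of all genes. The median log2 difference was -1.03 over the members and -0.25 over all genes tested. Summed germline markers moved with the members here too, at 106 to 167 FPKM in XO hermaphrodite and 236 to 336 FPKM in XX male L3 larvae. Of that list, glh-1, pgl-1 and mes-3 had overlapping ranges. nos-2 went the other way, at 1.28 to 2.24 FPKM in XO hermaphrodites and 0.939 to 1.04 FPKM in XX males. Summed oocyte markers were at 33.4 to 45.7 FPKM in XO hermaphrodites and 59.2 to 78.5 FPKM in XX males. The part of these markers' cells was not tested.

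The L3 calls rest on the spread estimated from all 4 groups. In a fit of the 6 L3 libraries alone, limma called 0 of the 10 members, with adjusted p from 0.277 to 0.492, although 7 had an unadjusted p under 0.05. Leaving out XO hermaphrodite L3 replicate 1 gave 8 calls, with cyb-3, cdk-1 and air-1 added. Leaving out XO hermaphrodite L3 replicate 2 gave 3, and leaving out XX male L3 replicate 1 gave 4, so the count moves with single libraries. The call of cyb-2.2 was also lost without XX male L3 replicate 1, and that of cye-1 without XO hermaphrodite L3 replicate 3.

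cdk-2 had the largest L3 difference. It was at 4.89, 1.54 and 1.98 FPKM in XO hermaphrodite L3 larvae, against 11.8, 11.5 and 8.82 FPKM in XX male L3 larvae. The highest XO hermaphrodite value, replicate 1, was still below every XX male value. The log2 difference was -1.71 ± 0.30 (SE; limma, adjusted p = 0.00832). cye-1 was at 7.30, 5.13 and 4.22 FPKM in XO hermaphrodites, against 13.7, 11.2 and 13.4 FPKM in XX males, again with replicate 1 the highest XO hermaphrodite library and no overlap. Its log2 difference was -1.09 ± 0.20 (SE; limma, adjusted p = 0.0116).

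cyb-1 was at 16.4, 20.1 and 17.4 FPKM in XO hermaphrodite L3 larvae, against 57.4, 39.7 and 38.03 FPKM in XX male L3 larvae. The XO hermaphrodite libraries were close together and all lower, and XX male replicate 1, which held sperm transcripts, was the highest. The log2 difference was -1.26 ± 0.21 (SE; limma, adjusted p = 0.00661). cyb-2.2 was near the lower end of the table's range, at 1.17, 1.1 and 1.65 FPKM in XO hermaphrodites, against 5.47, 2.79 and 3.62 FPKM in XX males. Its log2 difference was -1.08 ± 0.21 (SE; limma, adjusted p = 0.0157). plk-1 was at 16.8, 11.7 and 13.6 FPKM in XO hermaphrodites, against 25.6, 33.2 and 31.9 FPKM in XX males, with no overlap. The log2 difference of plk-1 was -1.06 ± 0.19 (SE; limma, adjusted p = 0.0105).

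The other members missed the threshold at L3. air-1 was nearest, at 25.5, 16.4 and 15.5 FPKM in XO hermaphrodite L3 larvae, against 34.6, 28.5 and 56.3 FPKM in XX male L3 larvae. Its groups did not overlap, but XX male replicate 3 lay apart from the rest of its group, and the log2 difference was -0.99 ± 0.27 (SE; limma, adjusted p = 0.0511). cyb-3 was at 38.4, 40.2 and 31.3 FPKM in XO hermaphrodites, against 49.0, 62.2 and 55.5 FPKM in XX males, with a log2 difference of -0.59 ± 0.17 (SE; limma, adjusted p = 0.0611). cdk-1 was at 29.4, 27.1 and 27.9 FPKM in XO hermaphrodites, against 39.4, 33.8 and 61.4 FPKM in XX males, with a log2 difference of -0.61 ± 0.21 (SE; limma, adjusted p = 0.0892). These 2 genes also had separate ranges, with XO hermaphrodites below.

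For the remaining pair the L3 ranges overlapped. cyb-2.1 was at 1.99, 2.86 and 1.75 FPKM in XO hermaphrodite L3 larvae, against 4.88, 4.46 and 2.69 FPKM in XX male L3 larvae. air-2 was at 10.6, 9.48 and 8.86 FPKM in XO hermaphrodites, against 11.5, 10.5 and 20.4 FPKM in XX males. The log2 differences were -0.63 ± 0.23 (SE; limma, adjusted p = 0.107) for cyb-2.1 and -0.45 ± 0.23 (SE; limma, adjusted p = 0.212) for air-2, with 95% confidence intervals, not adjusted for multiple tests, of -1.13 to -0.13 for cyb-2.1 and -0.95 to 0.04 for air-2. Summed with cyb-2.2 in 1 row, the paralogs had a log2 difference of -0.97 ± 0.20 (SE; limma, adjusted p = 0.0170). The B-type cyclin make-up at L3 differed in the same direction for cyb-1, which made up 28.3 to 33.3% in XO hermaphrodites, against 36.3 to 49.1% in XX males, which do not overlap (exact permutation test of 3 against 3, two-sided p = 0.1, the smallest possible).

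**Figure D3:**
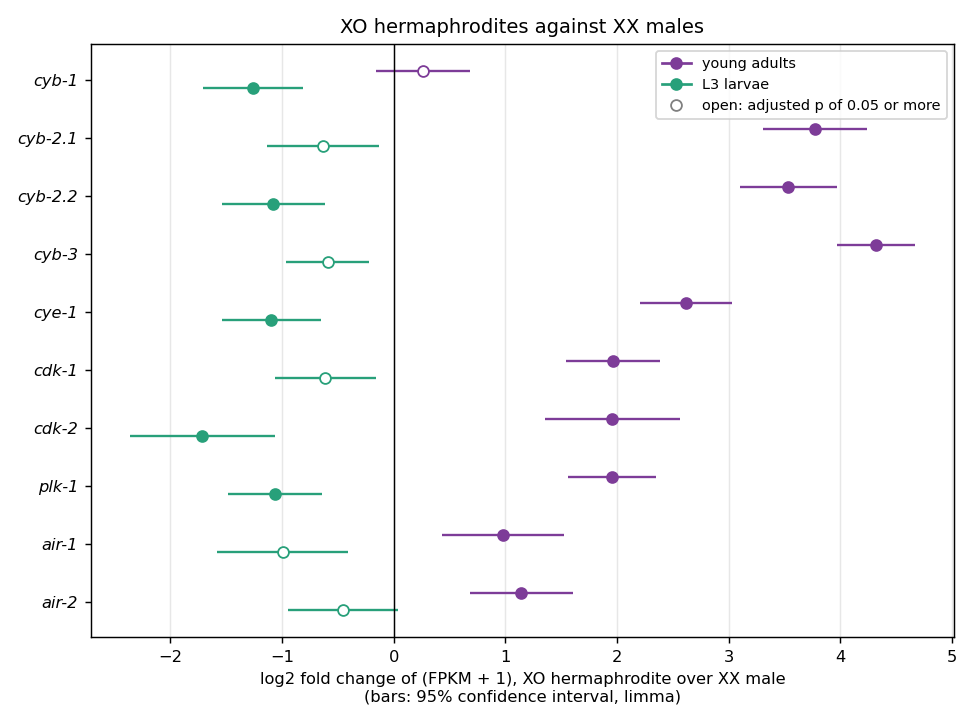
log2 fold change of (FPKM + 1), XO hermaphrodite over XX male, for each gene in young adults and in L3 larvae, with 95% confidence intervals from limma and open points for an adjusted p of 0.05 or more. In young adults the points run from 0.26 for cyb-1 to 4.32 for cyb-3, and at L3 all lie below 0.

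The change of the strain difference with stage was tested as the young adult difference minus the L3 difference. It was above 0 and called for all 10 members, against 32.6% of all genes tested above 0 and 23.9% below 0, with a median of 3.34 over the members and 0.07 over all genes on the log2 scale. It was largest for cyb-3, at 4.91 ± 0.24 (SE; limma, adjusted p = 8.8e-09), cyb-2.2, at 4.61 ± 0.29 (SE; limma, adjusted p = 9.4e-08), and cyb-2.1, at 4.41 ± 0.32 (SE; limma, adjusted p = 2.9e-07). It was 3.71 ± 0.28 (SE; limma, adjusted p = 4.4e-07) for cye-1, 3.67 ± 0.41 (SE; limma, adjusted p = 1.3e-05) for cdk-2 and 2.58 ± 0.28 (SE; limma, adjusted p = 1.2e-05) for cdk-1. Among the mitotic kinases it was 3.01 ± 0.27 (SE; limma, adjusted p = 1.9e-06) for plk-1, 1.97 ± 0.37 (SE; limma, adjusted p = 6.7e-04) for air-1 and 1.60 ± 0.31 (SE; limma, adjusted p = 9.0e-04) for air-2. It was smallest for cyb-1, at 1.52 ± 0.28 (SE; limma, adjusted p = 6.2e-04). The calls of all 10 remained in each fit that left out 1 library and under each other setting tried.

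From L3 to young adulthood, XO hermaphrodites showed higher levels of all 10 genes. Of all genes tested, 33.7% were called higher and 28.5% lower in XO hermaphrodite young adults relative to XO hermaphrodite L3 larvae. The libraries of the 2 stages did not overlap for any member, a split that 39.2% of all genes had with young adults above. The median log2 difference was 3.47 over the members and 0.13 over all genes. cyb-2.2 had the largest difference, averaging 174 ± 9.48 FPKM in young adults and 1.31 ± 0.302 FPKM at L3 (SD, n = 3 each), with a log2 difference of 6.25 ± 0.21 (SE; limma, adjusted p = 3.7e-10). cyb-2.1 averaged 147 ± 11.5 FPKM in young adults and 2.199 ± 0.584 FPKM at L3, with a log2 difference of 5.55 ± 0.23 (SE; limma, adjusted p = 1.3e-09). cdk-1 had the smallest, averaging 132 ± 16.1 FPKM in young adults and 28.1 ± 1.19 FPKM at L3, with a log2 difference of 2.18 ± 0.21 (SE; limma, adjusted p = 2.0e-06).

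The other 7 lay between these. The log2 stage difference in XO hermaphrodites was 4.12 ± 0.21 (SE; limma, adjusted p = 7.0e-09) for cyb-1 and 4.08 ± 0.17 (SE; limma, adjusted p = 1.5e-09) for cyb-3. For the S phase pair it was 3.56 ± 0.20 (SE; limma, adjusted p = 2.3e-08) for cye-1 and 3.39 ± 0.30 (SE; limma, adjusted p = 1.1e-06) for cdk-2. For the mitotic kinases it was 3.04 for plk-1, 2.81 for air-1 and 2.68 for air-2, all called. In the same comparison the oocyte markers stood at 5062 to 6017 FPKM in young adults and 33.4 to 45.7 FPKM at L3. Summed hypodermis markers, the collagens among them, stood at 179 to 724 FPKM in young adults and 10799.6 to 24401 FPKM at L3. The collagen gene col-10 made up most of the L3 sum, at 7143 to 19390 FPKM. Of the same list, lin-26 and nhr-23 were higher in young adults. lin-26 was at 53.1 to 66.7 FPKM in young adults and 19.3 to 40.1 FPKM at L3, and nhr-23 at 29.2 to 31.5 FPKM and 8.14 to 26.8 FPKM. The part of either tissue was not tested.

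XX males differed from this pattern. There, 5 members were higher in young adults than at L3, namely cyb-1, cyb-2.2, cyb-2.1, air-2 and air-1, against 21.7% of all genes. cyb-3 was lower, against 28.5% of all genes, and cye-1, cdk-1, cdk-2 and plk-1 were not called. The libraries of the stages did not overlap for 4 members that were higher in young adults and for cyb-3, against 23.9% and 32.8% of all genes in those directions. The median log2 difference was 0.43 over the members and -0.21 over all genes tested. The difference in stage response between the strains is the interaction given above. The 2 stage comparisons share no libraries.

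cyb-1 had the largest stage difference in XX males, averaging 277 ± 54.2 FPKM in young adults and 45.0 ± 10.7 FPKM at L3 (SD, n = 4 and 3), with a log2 difference of 2.60 ± 0.19 (SE; limma, adjusted p = 3.9e-07). cyb-2.2 averaged 14.2 ± 1.78 FPKM in young adults and 3.96 ± 1.37 FPKM at L3, with a log2 difference of 1.64 ± 0.20 (SE; limma, adjusted p = 2.5e-05). cyb-2.1 averaged 9.95 ± 1.86 FPKM in young adults and 4.01 ± 1.16 FPKM at L3, with a log2 difference of 1.14 ± 0.22 (SE; limma, adjusted p = 7.3e-04). These 3 B-type cyclins had all young adult libraries above all L3 libraries. cyb-3 went the other way, averaging 30.97 ± 2.93 FPKM in young adults and 55.6 ± 6.61 FPKM at L3, with a log2 difference of -0.82 ± 0.16 (SE; limma, adjusted p = 9.5e-04) and no overlap.

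The Aurora kinases were higher in XX male young adults. air-2 averaged 30.03 ± 3.80 FPKM in young adults and 14.1 ± 5.47 FPKM at L3, with a log2 difference of 1.09 ± 0.21 (SE; limma, adjusted p = 9.6e-04). air-1 averaged 70.2 ± 14.4 FPKM in young adults and 39.8 ± 14.6 FPKM at L3, with a log2 difference of 0.84 ± 0.25 (SE; limma, adjusted p = 0.0144). The stages overlapped for air-1, and without XX male L3 replicate 2 it was not called, at 0.63 on the log2 scale (limma, adjusted p = 0.0667). The 95% confidence intervals of the log2 difference were -0.57 to 0.26 for cye-1, -0.89 to 0.32 for cdk-2 and -0.37 to 0.42 for plk-1. cdk-1 had a log2 difference of -0.39 ± 0.19 (SE; limma, adjusted p = 0.112) and was called lower without XX male L3 replicate 2 (-0.57) and with upper quartile scaling or quantile normalization (-0.48 each). plk-1, at 0.03, was called higher with median ratio scaling (0.39) and was below 0, not called, with upper quartile scaling (-0.06). In this comparison the sperm markers stood at 5421 to 7310 FPKM in young adults and 3.78 to 392 FPKM at L3. The germline markers stood at 358 to 422 FPKM in young adults and 236 to 336 FPKM at L3. Of the germline markers, gld-1, pgl-3 and nos-2 had separate ranges with young adults above, and the others overlapped. gld-1 was at 54.2 to 82.9 FPKM in young adults and 26.6 to 39.9 FPKM at L3. glp-1 ran lower in young adults, at 5.70 to 7.70 FPKM, against 7.59 to 10.4 FPKM at L3. The part of these cells was not tested.

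**Figure D4:**
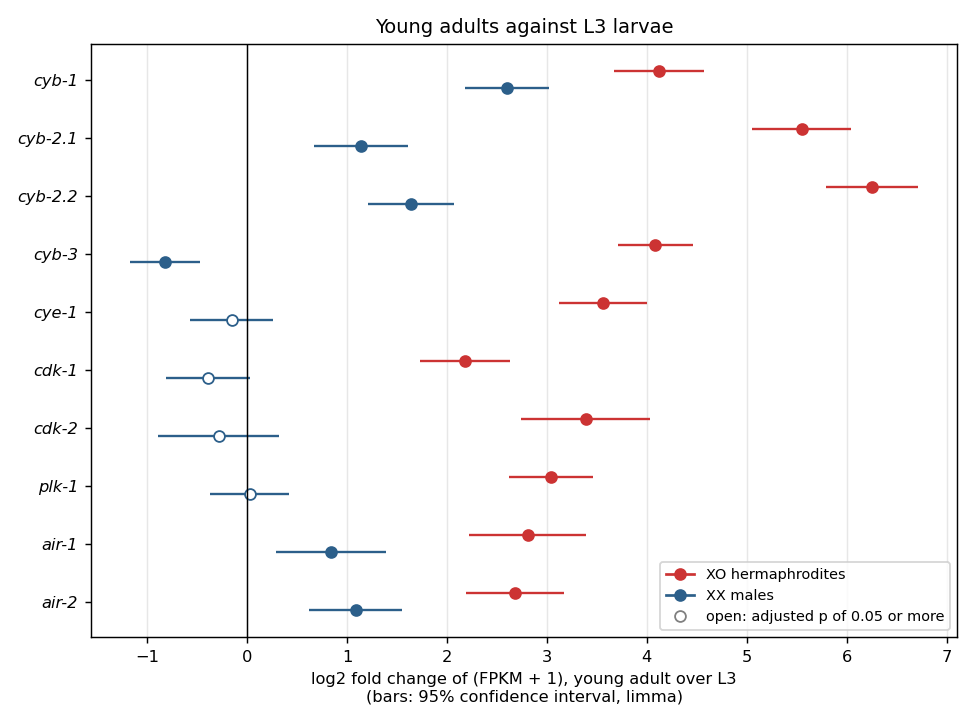
log2 fold change of (FPKM + 1), young adult over L3, for each gene in XO hermaphrodites and in XX males, with 95% confidence intervals from limma and open points for an adjusted p of 0.05 or more. XO hermaphrodite points run from 2.18 to 6.25, and XX male points from -0.82 for cyb-3 to 2.60 for cyb-1.

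In level, the order of the groups split the members. All 10 were highest in XO hermaphrodite young adults on average, with cyb-1 alone not separate from its neighbour, XX male young adults. For cyb-3, XX male young adults had the lowest mean of the 4 groups, and their range overlapped that of XO hermaphrodite L3 larvae. For the other 9 genes the lowest mean was in XO hermaphrodite L3 larvae, which overlapped the next group for cyb-2.1, cdk-1 and air-2. Within XX male young adults cyb-1 was first and air-1 second, each separate from the next gene in the order. In XO hermaphrodite young adults cyb-3, cyb-1 and cyb-2.2 led in that order with separate ranges, and cyb-2.1, air-1, cdk-1 and plk-1 followed with overlapping neighbours. At L3 cyb-3 had the highest mean in both strains, separate from the next gene in XO hermaphrodites and overlapping cyb-1 in XX males.

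Across the 13 libraries, pairs of members without cyb-1 had Pearson correlations of log2(FPKM + 1) of 0.674 to 0.985, with a median of 0.900 over 36 pairs. The 9 pairs with cyb-1 had 0.450 to 0.906, with a median of 0.743. These libraries fall into 4 groups and all pairs share them, so the values describe the group pattern. Among 8577 other genes averaging 10 FPKM or more, those most correlated with cdk-1 were K06B9.2 (0.996), F21H12.1 (0.995), C36A4.4 (0.995) and eri-1 (0.993). For cye-1 they were cin-4 (0.996), F44B9.8 (0.996), fem-3 (0.995) and B0464.6 (0.995). For cyb-2.1 they were W02F12.3 (0.996), W06B4.1 (0.995), rnp-8 (0.995) and W05F2.3 (0.994). W05F2.3 was the most abundant of these, averaging 951 FPKM in XO hermaphrodite young adults and 30.6 FPKM in XX male young adults.

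Other genes of the cell cycle machinery were described in 6 lists holding 76 tested genes. In young adults, 66 of the 76 were called higher in XO hermaphrodites and 1, cdc-25.4, was called lower, against 33.9% and 33.3% of all genes. The median log2 difference was 1.33 over the 76 genes, against 1.96 over the 10 members. Among 15 other cyclins and cyclin-dependent kinases, 12 were called higher. The cyclin D gene cyd-1 averaged 6.09 ± 2.01 FPKM in XO hermaphrodites and 0.658 ± 0.0951 FPKM in XX males (SD, n = 3 and 4), with a log2 difference of 2.06 ± 0.30 (SE; limma, adjusted p = 6.3e-05). The cyclin-dependent kinase subunit gene cks-1 averaged 229 ± 29.6 FPKM in XO hermaphrodites and 60.1 ± 15.8 FPKM in XX males, with a log2 difference of 1.94 ± 0.23 (SE; limma, adjusted p = 1.3e-05).

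Among 13 regulators of cyclin-dependent kinases, 10 were higher and 1 lower. The CDC25 phosphatases, which remove inhibitory phosphates from these kinases, divided. cdc-25.2 averaged 27.8 ± 5.29 FPKM in XO hermaphrodite young adults and 2.81 ± 0.739 FPKM in XX male young adults, with a log2 difference of 2.92 ± 0.33 (SE; limma, adjusted p = 7.9e-06). cdc-25.3 averaged 26.5 ± 2.15 FPKM in XO hermaphrodites and in XX males was listed at 0 in 3 libraries and at 0.0910 FPKM in replicate 1, with a difference of 4.75 ± 0.14 on the log2(FPKM + 1) scale (SE; limma, adjusted p = 3.5e-11). cdc-25.4 was the reverse, averaging 0.744 ± 0.680 FPKM in XO hermaphrodites and 13.6 ± 1.98 FPKM in XX males, with a log2 difference of -3.12 ± 0.42 (SE; limma, adjusted p = 2.9e-05).

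Among 11 polo and Aurora partners, 8 were higher. The polo-like kinase gene plk-3 averaged 188 ± 15.2 FPKM in XO hermaphrodite young adults and 37.7 ± 3.54 FPKM in XX male young adults, with a log2 difference of 2.29 ± 0.22 (SE; limma, adjusted p = 1.8e-06). icp-1, the INCENP gene whose product binds AIR-2, averaged 97.7 ± 14.2 FPKM in XO hermaphrodites and 11.5 ± 1.17 FPKM in XX males, with a log2 difference of 2.98 ± 0.20 (SE; limma, adjusted p = 9.6e-08). Its partner air-2 differed by 1.14 on the same scale.

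Among 15 genes of the anaphase-promoting complex and separase, which end mitosis by destroying cyclins and cutting cohesin, 14 were higher. mat-2 and apc-11, which encode subunits of that complex, had log2 differences of 2.16 ± 0.22 for mat-2 (SE; limma, adjusted p = 2.9e-06) and 2.22 ± 0.27 for apc-11 (SE; limma, adjusted p = 1.5e-05). All 11 genes of the spindle checkpoint and kinetochore were higher, led by the checkpoint genes san-1, at 3.31 ± 0.27, and mdf-2, at 3.10 ± 0.27 (SE; limma, adjusted p = 4.8e-07 and 8.1e-07). All 11 centrosome genes were higher, led by the centriole duplication genes zyg-1, at 2.22 ± 0.22, and sas-4, at 1.73 ± 0.27 (SE; limma, adjusted p = 2.4e-06 and 1.0e-04).

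**Figure D5:**
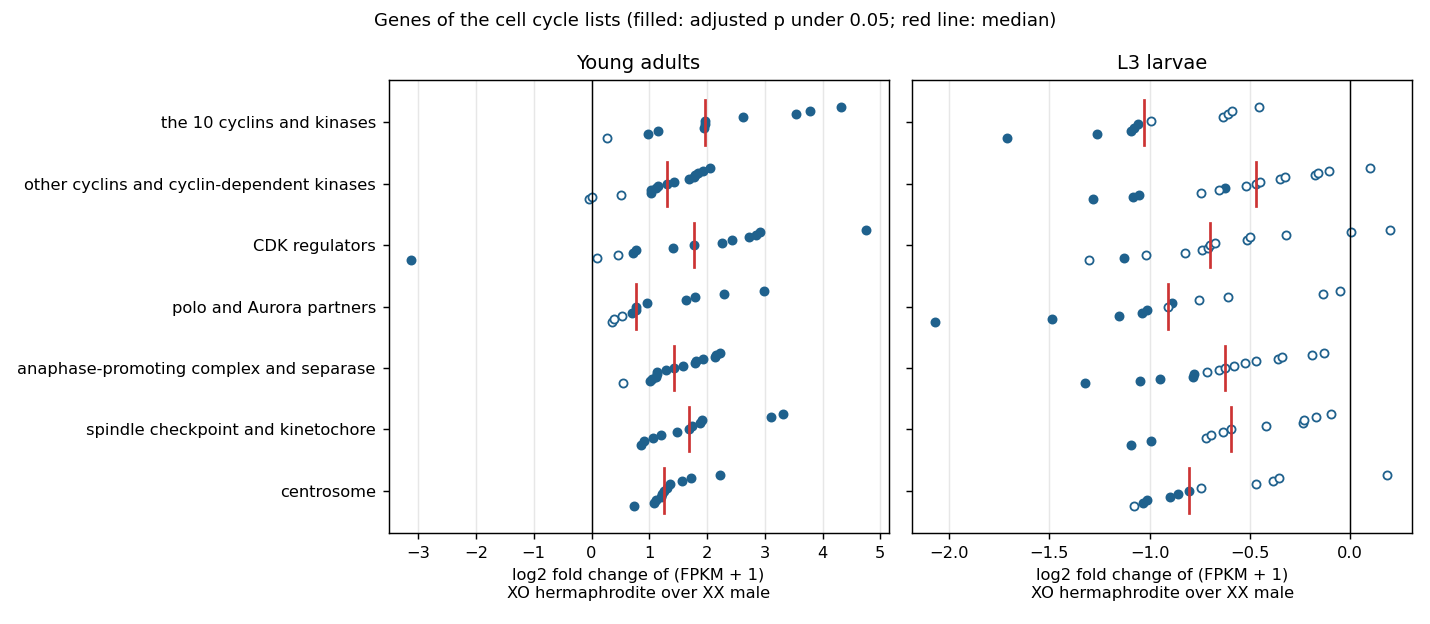
log2 fold change of (FPKM + 1), XO hermaphrodite over XX male, of each gene in the 10 members and the 6 lists, in young adults (left) and L3 larvae (right), on separate horizontal scales, with the median of each row as a red line. In young adults the row medians lie between 0.77 and 1.96, and at L3 between -1.03 and -0.47.

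At L3, 23 of the 76 list genes were called lower in XO hermaphrodites and none higher, against 4.31% and 1.26% of all genes. None of the 76 was called in the fit of the 6 L3 libraries alone (limma). Without XO hermaphrodite replicate 1 the count was 42, without XO hermaphrodite replicate 2, XO hermaphrodite replicate 3 or XX male replicate 1 it was 8, and without XX male replicate 3 it was 11. The lower genes were 4 other cyclins and kinases, 1 regulator, 6 polo and Aurora partners, 5 of the anaphase-promoting complex and separase, 2 of the spindle checkpoint and kinetochore and 5 of the centrosome. plk-3 had the largest difference, averaging 2.64 ± 1.41 FPKM in XO hermaphrodite L3 larvae and 13.6 ± 1.71 FPKM in XX male L3 larvae (SD, n = 3 each), with a log2 difference of -2.07 ± 0.23 (SE; limma, adjusted p = 7.7e-04). ect-2, which acts in cytokinesis, averaged 3.99 ± 1.11 FPKM in XO hermaphrodites and 12.8 ± 1.51 FPKM in XX males, with a log2 difference of -1.49 ± 0.19 (SE; limma, adjusted p = 0.00231). wee-1.3, the inhibitory kinase of CDK-1, was at -1.13 ± 0.19, the separase gene sep-1 at -1.05 ± 0.18 and the centromere gene knl-2 at -0.99 ± 0.18 in log2 difference (SE; limma, adjusted p = 0.00791, 0.00861 and 0.00996).

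The calls of the other named genes at L3 were lost when some single libraries were left out. These were fzr-1, the Cdh1-type activator of the anaphase-promoting complex, at -1.32 ± 0.33, the transcriptional kinase gene cdk-12 at -1.28 ± 0.34 and the cyclin T gene cit-1.1 at -1.08 ± 0.24 in log2 difference (SE). They were also knl-1, a kinetochore scaffold gene, at -1.09 ± 0.21, and the centrosome genes zyg-9 at -1.03 ± 0.24 and spd-2 at -1.01 ± 0.22 (SE). Adjusted p-values of these 6 ran from 0.0153 for knl-1 to 0.0472 for cdk-12 (limma).

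The young adult minus L3 difference was called above 0 for 68 of the 76 list genes and below 0 for 1, cdc-25.4, with a median of 2.13. The shares over all genes were 32.6% above 0 and 23.9% below 0. The largest in each list on the log2 scale were cyh-1 (cyclin H) at 2.90 ± 0.33 and cyd-1 at 2.80 ± 0.44, cdc-25.3 at 4.74 ± 0.20 and cdc-25.2 at 4.22 ± 0.49, and plk-3 at 4.35 ± 0.32 and icp-1 at 3.59 ± 0.30 (SE). In the remaining lists they were mat-2 at 3.11 ± 0.32 and such-1 (another subunit of the anaphase-promoting complex) at 2.91 ± 0.26, san-1 at 3.73 ± 0.39 and mdf-2 at 3.20 ± 0.39, and sas-4 at 2.80 ± 0.40 and zyg-1 at 2.69 ± 0.32 (SE). Their adjusted p-values in limma ran from 3.8e-09 for cdc-25.3 to 2.0e-04 for cyd-1. cdc-25.4 was at -2.42 ± 0.61 (SE; limma, adjusted p = 0.00494), and this call was lost with a pseudocount of 0.1.

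In XO hermaphrodites, 69 of the 76 list genes were called higher in young adults than at L3, with a median log2 difference of 2.30. The shares over all genes were 33.7% higher and 28.5% lower, and 1 list gene was lower. The lower gene was cki-1, an inhibitor of cyclin-dependent kinases, which averaged 8.67 ± 1.55 FPKM in young adults and 36.8 ± 6.89 FPKM at L3, with a log2 difference of -1.96 ± 0.22 (SE; limma, adjusted p = 8.2e-06). plk-3 had the largest rise, averaging 188 ± 15.2 FPKM in young adults and 2.64 ± 1.41 FPKM at L3, with a log2 difference of 5.76 ± 0.23 (SE; limma, adjusted p = 1.1e-09). The securin gene ify-1 averaged 175 ± 15.2 FPKM in young adults and 13.6 ± 4.30 FPKM at L3, with a log2 difference of 3.63 ± 0.24 (SE; limma, adjusted p = 9.5e-08). The other leading genes were cdc-25.3 (4.75), wee-1.3 (4.02), ect-2 (3.75), sep-1 (3.34), spd-2 (3.03), cyh-1 (2.95), sas-5 (2.86), san-1 (2.79), knl-2 (2.69) and cdk-12 (2.40), as log2 differences. cdc-25.3 was listed at 0 in 2 of the 3 XO hermaphrodite L3 libraries, so its value depends on the pseudocount.

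In XX males the lists were divided between the stages, with 19 of the 76 genes higher and 16 lower in young adults and a median log2 difference of 0.01. Of all genes tested, 21.7% were higher and 28.5% lower, so these counts are near the background. Polo and Aurora partners held 8 of the higher genes. ect-2 averaged 49.8 ± 5.89 FPKM in young adults and 12.8 ± 1.51 FPKM at L3, with a log2 difference of 1.88 ± 0.18, and tpxl-1, the activator of AIR-1, averaged 103 ± 20.1 FPKM in young adults and 37.0 ± 2.16 FPKM at L3, with a log2 difference of 1.43 ± 0.17 (SE; limma, adjusted p = 4.3e-06 and 2.6e-05). cdc-25.4 (3.16), ify-1 (2.06), wee-1.3 (1.48), sep-1 (1.18), knl-3 (1.06), hcp-4 (0.99), spd-2 (0.90), sas-6 (0.81) and cdk-9 (0.66) were also higher, as log2 differences. The G1 genes cyd-1 and cdk-4, a cyclin and its kinase, had the largest falls. cyd-1 averaged 0.658 ± 0.0951 FPKM in young adults and 13.6 ± 4.08 FPKM at L3, with a log2 difference of -3.11 ± 0.30 (SE; limma, adjusted p = 4.8e-06). cdk-4 averaged 0.641 ± 0.263 FPKM in young adults and 7.41 ± 2.76 FPKM at L3, with a log2 difference of -2.31 ± 0.26 (SE; limma, adjusted p = 1.6e-05). cdc-25.2 (-2.04), cki-1 (-1.86), san-1 (-0.94), gfi-3 (-0.92), emb-30 (-0.84), mdf-2 (-0.83) and icp-1 (-0.81) were lower too. The calls of mdf-2 and sas-6 were lost without some single libraries, and those of mdf-2, san-1 and icp-1 with median ratio scaling.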

How the data were processed

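The values are FPKM, which the authors deposited as 1 table with a column for each library. Libraries of poly(A) RNA were strand-specific, per the labels' protocols. The submitters' processing notes name Cufflinks 2.2.0. No aligner, annotation or genome build is given in these sources, so no coordinates are printed. All 14 value columns were matched to samples by name, and 1, the reverted library, was not used. Replicates are numbered as in the sample titles. In XO hermaphrodite young adults the source names number them differently.

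The table held 20417 rows. Removing 6 repeated rows left 20411 genes, of which 22 were empty in every library used and 13 had values only in XX male young adults, and 20376 were used. It is not given if those libraries were quantified with other settings. FPKM carries no read counts, so no counting interval is given. Members and list genes were matched by the gene name in the table. A list gene whose name was absent was traced from its current name by gene ID. In the table sep-1 is written 1-Sep, cdk-12 is cdtl-7, cdk-11.1 is B0495.2 and emb-1 is apc-16. cya-1 is not analysed here.

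Tests used log2(FPKM + 1), which understates changes of low genes, for 14628 genes averaging 1 FPKM or more over 13 libraries. limma 3.58.1 in R 4.3.3 fitted 4 group means (eBayes with trend) and took no covariates. p-values were adjusted by the method of Benjamini and Hochberg, and calls used 0.05. Shares and ratios were compared by exact permutation over libraries. The pipeline was tested on simulated data. Tables and figures were made in Python 3.11.15 (matplotlib 3.10.9, numpy 2.4.6, pandas 2.3.3).

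The members and lists were chosen with earlier results of these data known. The text names all 10 members, up to 2 called genes per list, direction and comparison, and the 4 genes most correlated with each of cdk-1, cye-1 and cyb-2.1. Alternatives were another pseudocount, no filter, upper quartile, median ratio and quantile scaling, no trend, only the groups compared, a replicate block, a threshold of 0.01 and leaving out each library. Scaling to a common sum of FPKM and summing cyb-2.1 with cyb-2.2 were chosen after seeing the data. The cyclin shares and ratios and their permutation tests were not among the tests planned in advance.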

Additional observations from a re-analysis of the deposited data

Results flagged for a closer look

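The strain difference in young adults minus that at L3 was past the threshold of the interaction test for all 10 members. On the log2 scale it was 1.52 for cyb-1, 4.41 for cyb-2.1, 4.61 for cyb-2.2, 4.91 for cyb-3 and 3.71 for cye-1. It was 2.58 for cdk-1, 3.67 for cdk-2, 3.01 for plk-1, 1.97 for air-1 and 1.60 for air-2. Of the named list genes, cyd-1 (2.80), cyh-1 (2.90), cdc-25.2 (4.22), cdc-25.3 (4.74), plk-3 (4.35), icp-1 (3.59) and mat-2 (3.11) passed the same test. So did such-1 (2.91), mdf-2 (3.20), san-1 (3.73), zyg-1 (2.69), sas-4 (2.80) and, below 0, cdc-25.4 (-2.42).

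Among XX male young adults, the only group of 4 libraries, 1 library stood apart from the rest for 11 of 46 genes examined. It was replicate 4, as the highest, for 10 of these. Chance gives about 1 in 20 for independent groups, but these 46 genes share the same 4 libraries, so that rate cannot be applied here. The share over all genes tested was not computed. cyb-1 was at 358 FPKM in replicate 4 and 242 to 254 FPKM in the others, a gap of 0.897 of the group's range. The gap was 0.844 for cyh-1, 0.862 for cdk-9, 0.939 for cks-1, 0.952 for cki-1, 0.912 for wee-1.3, 0.851 for tpxl-1, 0.918 for such-1, 0.847 for spd-2 and 0.958 for zyg-9. For cdc-25.3, replicate 1 was at 0.0910 FPKM and the others were listed at 0, which fixes the gap at 1. Without replicate 4 the young adult log2 difference of cyb-1 was 0.39 and was not called.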

How the results depend on the processing

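No value of a member or named list gene that was called changed sign. In the young adult, interaction and XO hermaphrodite stage comparisons, every alternative kept the calls of the members, with 1 addition: cyb-1 in young adults was called higher with quantile normalization (1.01), common sum scaling (0.67) and the replicate block (0.39). The L3 count of called members, 5 in the reported fit, was 9 with common sum scaling, 2 at a threshold of 0.01, 0 with only the L3 groups fitted (limma; 7 at an unadjusted p under 0.05) and 0 with the replicate block (limma; 6 at an unadjusted p under 0.05). Leaving out 1 library gave 3 to 8. Over all genes the L3 count was 816 in the reported fit (4046 at an unadjusted p under 0.05), 1921 with common sum scaling, 175 at 0.01, 9 with only the L3 groups, 2 with the replicate block and 250 to 4434 leaving out 1 library. Of the 76 list genes, 23 were called at L3 in the reported fit, 42 with common sum scaling, 12 with quantile normalization, 7 at 0.01, 0 with the replicate block (limma) and 8 to 42 leaving out 1 library. The cause of these changes was not tested, and some of these fits also hold fewer libraries. In XX males, 4 named genes lost their stage call with the replicate block: air-1 (0.73; limma, adjusted p = 0.135), sas-6 (0.73; limma, adjusted p = 0.0815), cdk-9 (0.53; limma, adjusted p = 0.0534) and mdf-2 (-0.96; limma, adjusted p = 0.0527). Between the strains, correlations of same-numbered deviations were -0.062, -0.048 and -0.017 at L3, against -0.039 to 0.054 for different numbers. In young adults the same-numbered values were 0.047, 0.298 and 0.198, against -0.241 to 0.043 for different numbers. Whether equal numbers mark a shared preparation was not tested.

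Scaling moved the median of all genes from -0.34 to 0.27 in young adults and from -0.44 to 0.01 at L3 on the log2 scale. The share of calls that were higher was 22.7% at L3 as deposited, and 51.4% with upper quartile, 36.1% with median ratio, 55.6% with quantile and 7.6% with common sum scaling. In young adults it was 50.5% as deposited, 41.8% with upper quartile, 46.1% with median ratio, 60.4% with quantile and 61.6% with common sum scaling. For the interaction it was 57.7% as deposited, and 41.0%, 48.4%, 58.3% and 71.2% with these scalings in the same order. By stage it was 54.3% as deposited in XO hermaphrodites, and 35.7%, 55.2%, 48.0% and 73.1% in that order. In XX males it was 43.2% as deposited, and 37.5%, 62.3%, 33.2% and 44.9%.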

Other observations

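The 4 genes most correlated with cyb-1 over the 13 libraries, chosen after its values were seen, were B0238.9 (Pearson correlation of log2(FPKM + 1) of 0.993), klp-7 (0.992), stam-1 (0.986) and ect-2 (0.986). klp-7, which encodes a microtubule-depolymerizing kinesin, averaged 83.7 FPKM in XO hermaphrodite young adults, 71.5 FPKM in XX male young adults, 21.2 FPKM in XO hermaphrodite L3 larvae and 28.7 FPKM in XX male L3 larvae.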
